A study of Rattus norvegicus with 6 samples.

Results

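Ionotropic glutamate receptors are ion channels that open when glutamate binds, and each channel is an assembly of subunits encoded by a gene family. The 10 subunit genes described here were chosen by name, and all 10 were found among the 22536 genes of the deposited table. They are the 4 AMPA receptor genes Gria1 to Gria4, the kainate receptor genes Grik1, Grik2 and Grik5, and the NMDA receptor genes Grin1, Grin2b and Grin3a. RNA had been sequenced from 3 rats with painful diabetic neuropathy (PDN), the pain that can follow nerve damage in diabetes, and from 3 control rats. All 6 rats were male. The labels call the tissue sensory neuron in both groups, and the title names the dorsal root ganglion, where the cell bodies of these neurons lie. The induction of diabetes and the strain and age of the rats are not given in the labels, and a library is taken as 1 animal.

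In sensory neurons, glutamate is the transmitter released onto the spinal cord, and the neurons themselves carry glutamate receptors on their cell bodies and terminals. AMPA receptors carry fast current, and the subunit encoded by Gria2 limits their calcium entry once its transcript has been edited. Kainate receptors of sensory neurons are known for the GluK1 subunit, encoded by Grik1. NMDA receptors need the subunit encoded by Grin1, which combines with a GluN2 or GluN3 partner. These statements are background and not results.

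FPKM values are fragments scaled to transcript length and library size. The deposited tables imply 51857000 to 62787000 fragments per library, if the constant that links them is the library size, which was not checked. Markers of sensory neurons summed to 8735 to 9773 FPKM in PDN libraries and 8766 to 10150 FPKM in control libraries. Markers of Schwann cells summed to 3434 to 4122 FPKM in PDN libraries and 3431 to 4239 FPKM in control libraries, so the libraries also held glial RNA. Skeletal muscle markers summed to 36.5, 2.29 and 198 FPKM in PDN 1, 2 and 3, against 2.14, 621 and 2.13 FPKM in control 1, 2 and 3. Control 2 and PDN 3 therefore held the most muscle RNA, and the fit without both is given where it matters. PDN 1 also lies above PDN 2, control 1 and control 3 in muscle RNA, and it stays in that fit. Of 12 markers of spinal cord glia and interneurons, Olig2 was at 0 in every library and the list summed to 4.46 to 5.34 FPKM in PDN libraries and 2.95 to 4.35 FPKM in control libraries, mostly from Hapln2. Its part in the results below was not tested. In such bulk tissue, fewer cells of a type and less RNA per cell cannot be told apart.

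Sequence upstream of the start site is shown for Grik1 and Grin1, the most abundant kainate and NMDA members. The sequences are the 250 bases before the start site in RefSeq (build GRCr8), for Grik1 at chr11:41056504-41056753 and for Grin1 at chr3:28528755-28529004, both on the minus strand. They are written 5′ to 3′ with each CG dinucleotide in capitals.
Grik1: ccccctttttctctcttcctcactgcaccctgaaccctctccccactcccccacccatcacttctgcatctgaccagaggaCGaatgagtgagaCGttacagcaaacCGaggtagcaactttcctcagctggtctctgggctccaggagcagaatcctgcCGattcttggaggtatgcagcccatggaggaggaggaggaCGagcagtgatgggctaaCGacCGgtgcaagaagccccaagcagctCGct
Grin1: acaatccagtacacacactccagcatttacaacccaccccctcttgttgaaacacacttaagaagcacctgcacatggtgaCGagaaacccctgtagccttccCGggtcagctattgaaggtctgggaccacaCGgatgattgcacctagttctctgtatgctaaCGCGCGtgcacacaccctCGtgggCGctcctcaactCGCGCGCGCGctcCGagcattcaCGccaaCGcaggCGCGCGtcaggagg
The Grik1 stretch holds 8 CG dinucleotides and the Grin1 stretch 19, against a median of 5 over 33469 RefSeq promoters of the same length. Promoters were found for 6 of the 10 members (Gria4, Grik1, Grik2, Grik5, Grin1 and Grin3a), with 5 to 19 CG dinucleotides. The GC box GGGCGG, searched on both strands, occurred in 1 of the 6, Grik5, and in 30.5% of all promoters. Neither the TATA box TATAAA (12.9% of all promoters) nor the cyclic AMP response element TGACGTCA (1.59%) occurred in these 6 windows. A match, or its absence, describes the letters of the window only.

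Kainate receptor subunits were the most abundant class, and none of the 3 members differed between PDN and control tissue beyond the spread between animals. Grik1, which encodes a subunit that binds glutamate with low affinity, was the highest of all 10 genes. It was at 41.8, 40.0 and 38.0 FPKM in PDN libraries and at 42.0, 33.9 and 41.2 FPKM in control libraries. The groups overlap, and the lowest library is control 2. The mean was 39.9 ± 1.91 FPKM in PDN and 39.0 ± 4.48 FPKM in controls (SD, n = 3 each). On the log2(FPKM + 1) scale, which understates changes of low genes, the difference PDN minus control was 0.04 ± 0.09 (SE), its 95% interval -0.18 to 0.26 and its adjusted p in limma 0.999. The gene (ENSRNOG00000001575) lies on chromosome 11, from 27811957 to 27971359 as the file gives it, with no build named there.

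Grik2, which encodes the low-affinity subunit GluK2, was at 14.4, 12.7 and 15.2 FPKM in PDN libraries and at 12.5, 17.6 and 11.4 FPKM in control libraries. The control values bracket the PDN values, and control 2 is the highest library. The difference was 0.04 ± 0.15 (SE), with a 95% interval of -0.32 to 0.40. The libraries ranked by Grik2 (control 2, PDN 3, PDN 1, PDN 2, control 1, control 3) come in the same order as when ranked by the summed muscle markers, which was seen after the values. Control 2 and PDN 3 also had the highest sums of Schwann cell markers, at 4122 FPKM in PDN 3 and 4239 FPKM in control 2, and of satellite glia markers, at 2064 FPKM in PDN 3 and 2156 FPKM in control 2. The part of these cell types in the Grik2 values was not tested. Without both libraries the difference was 0.16, at an adjusted p of 1.00 in limma.

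Grik5 encodes the high-affinity subunit GluK5, which forms channels only together with a low-affinity subunit. It was at 9.57, 8.49 and 8.18 FPKM in PDN libraries and at 8.74, 7.58 and 7.99 FPKM in control libraries. The groups overlap, with PDN 1 the highest and control 2 the lowest library. The difference was 0.10 ± 0.09 (SE), its 95% interval -0.11 to 0.30 and its adjusted p in limma 0.999. The other kainate subunit genes, which are not among the 10, had values of the same order. Grik4, the second high-affinity subunit gene, was at 7.86 ± 0.939 FPKM in PDN and 7.12 ± 0.790 FPKM in controls, and Grik3 at 4.25 ± 1.07 FPKM in PDN and 3.76 ± 0.408 FPKM in controls (SD, n = 3 each).

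**Figure D1:**
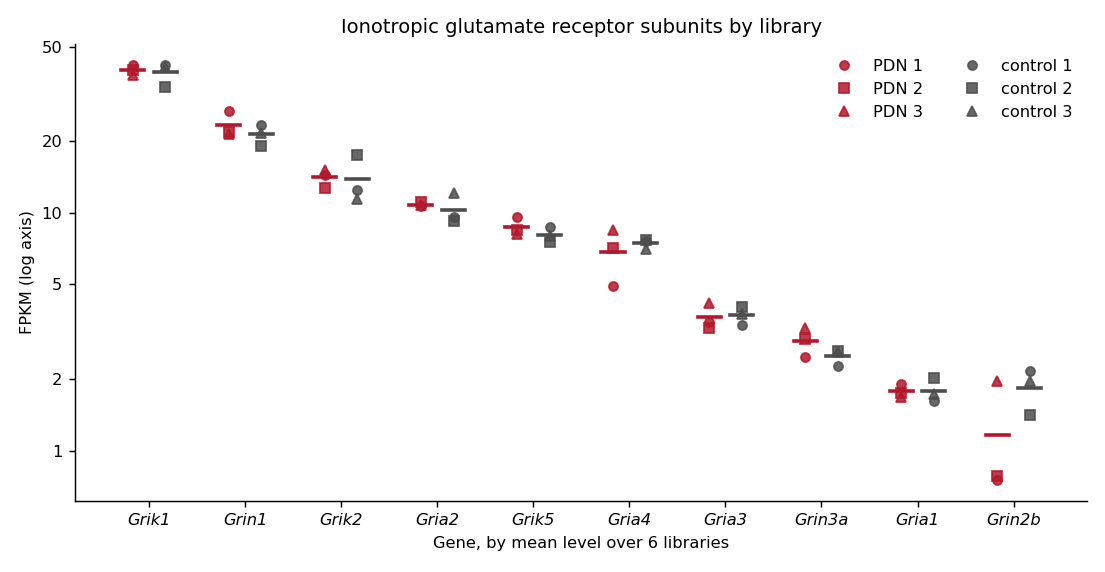
FPKM of the 10 subunit genes in each library on a log axis, ordered by mean level, with PDN libraries in red left of control libraries in grey and short lines for the group means. The genes span 39.5 to 1.50 FPKM in mean level, the groups overlap in every gene, and PDN 1 and PDN 2 lie lowest for Grin2b.

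AMPA receptor subunits also overlapped between the groups in every case. Gria2 was the most abundant of them and was at 10.7, 11.1 and 10.8 FPKM in PDN libraries, against 9.63, 9.26 and 12.1 FPKM in control libraries. The 3 PDN libraries lie within the range of the controls. The mean was 10.8 ± 0.221 FPKM in PDN and 10.3 ± 1.56 FPKM in controls (SD, n = 3 each), a difference of 0.07 ± 0.10 (SE) on the log2 scale with a 95% interval of -0.17 to 0.31. It was 0.004 without control 2 and 0.18 without control 3, and did not pass the adjusted threshold in either fit.

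Gria4 encodes a subunit of rapid channel kinetics. It was at 4.93, 7.14 and 8.48 FPKM in PDN libraries and at 7.66, 7.68 and 7.08 FPKM in control libraries. PDN 1 is the lowest and PDN 3 the highest library, so the PDN values spread more widely than those of the controls (SD of 1.79 and 0.340 FPKM, n = 3 each). The difference was -0.14 ± 0.16 (SE), with an adjusted p of 0.999 in limma. It was 0.05 without PDN 1, so the direction of the estimate rests on that library, and -0.29 without PDN 3. The file places Gria4 (ENSRNOG00000006957) on chromosome 8, from 1548146 to 2045817.

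Gria3 was at 3.49, 3.27 and 4.17 FPKM in PDN libraries and at 3.38, 4.005 and 3.76 FPKM in control libraries. Gria1, which encodes a subunit whose insertion at synapses depends on activity, was at 1.91, 1.74 and 1.68 FPKM in PDN libraries and at 1.61, 2.02 and 1.73 FPKM in control libraries. Both genes overlap fully between the groups. Their differences were -0.02 ± 0.11 and -0.005 ± 0.10 (SE), with 95% intervals of -0.27 to 0.22 for Gria3 and -0.24 to 0.23 for Gria1. For Gria1, at -0.005, the sign turned to 0.01 with median-of-ratios or upper-quartile scaling, where the median of all tested genes was 0.004 and 0.005 against -0.02 without them. For Gria3 the sign turned in the deposited table of whole numbers.

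Of the NMDA receptor subunits, Grin1 was abundant and its partners were low. Grin1, the subunit gene that every NMDA receptor needs, was at 26.8, 22.0 and 21.5 FPKM in PDN libraries and at 23.4, 19.1 and 21.7 FPKM in control libraries. PDN 1 is the highest and control 2 the lowest library, and the groups overlap. The mean was 23.4 ± 2.92 FPKM in PDN and 21.4 ± 2.17 FPKM in controls (SD, n = 3 each). The difference was 0.12 ± 0.11 (SE), its 95% interval -0.13 to 0.38 and its adjusted p in limma 0.999. It was 0.03 without PDN 1 and 0.05 without control 2. The file places Grin1 (ENSRNOG00000011726) on chromosome 3, from 2506896 to 2534663.

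Grin2b, which encodes the GluN2B subunit that binds glutamate and is a target of subtype-selective blockers, had the largest difference of the 10. It was at 0.752, 0.779 and 1.96 FPKM in PDN libraries and at 2.16, 1.41 and 1.96 FPKM in control libraries. PDN 1 and PDN 2 lie below every control, while PDN 3 lies among the controls, so the groups overlap. The mean was 1.16 ± 0.688 FPKM in PDN and 1.84 ± 0.390 FPKM in controls (SD, n = 3 each), a ratio of means of 0.631. The difference was -0.43 ± 0.22 (SE), with a 95% interval of -0.95 to 0.09, an unadjusted p of 0.0912 and an adjusted p of 0.999 in limma. It did not pass the threshold. The file places Grin2b (ENSRNOG00000008766) on chromosome 4, from 169560387 to 169999873.

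The Grin2b estimate was lower in PDN whichever library was left out, from -0.68 to -0.30. The most negative value came without PDN 3, with an unadjusted p of 0.00332 and an adjusted limma p of 0.599. Without both PDN 3 and control 2, which leaves fewer libraries per group, the estimate was -0.79. Its unadjusted p in limma was 0.00137 and its adjusted p 0.473. PDN 3 is the highest PDN library for Grin2b and control 2 the lowest control, so leaving either out is bound to widen the difference. The filter was set on all 6 libraries and not repeated for these fits. Without PDN 3, only control libraries reach an FPKM of 1 for Grin2b. Without control 2 as well, fewer than 3 libraries reach it, so a repeated filter would have removed the gene. The p-values of these 2 fits therefore carry no weight as tests of the difference. Centred on the sensory neuron markers it was -0.46, and with a pseudocount of 0.1 in place of 1 it was -0.73. The deposited table of whole numbers gave -0.78. Grin2b passed the filter on low values in 4 libraries only, the 3 controls and PDN 3, so it entered the test mainly through the group in which it is higher. Its level is near the lower end of what was tested, with 6.63% of the 13282 tested genes at a lower mean.

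The 2 libraries in which Grin2b was lowest, PDN 1 and PDN 2, were also the lowest for 5 of the 10 satellite glia markers, among them Kcnj10, Ptprz1, Gja1 and Ednrb. The same held for 4 of 9 tested macrophage markers, 3 of 11 tested fibroblast and endothelial markers, 1 of 11 Schwann cell markers and 0 of 16 sensory neuron markers, and for 9.80% of all tested genes. Ednrb, for example, was at 22.7, 22.1 and 33.0 FPKM in PDN libraries and at 28.2, 34.8 and 29.2 FPKM in control libraries. The other 5 satellite glia markers did not share this pattern. Among them Glul was highest in PDN 1 and PDN 2, at 123, 114 and 84.2 FPKM in PDN libraries. In control libraries Glul was at 106, 104 and 97.3 FPKM. Of the 10 satellite glia markers 8 had lower estimates in PDN, with a median of -0.20, and Kcnj10 and Ptprz1 were lower at an unadjusted p under 0.05 in limma. Of the 9 tested macrophage markers 8 had lower estimates, with a median of -0.18 and 4 at an unadjusted p under 0.05, and of the 11 fibroblast and endothelial markers 10 had lower estimates, with a median of -0.14 and 3 lower and 1 higher at that p. None of these passed the adjusted threshold in the fit on all 6 libraries. Without PDN 3, the highest PDN library for the macrophage marker Aif1, that gene passed it, at -1.19 and an adjusted limma p of 0.0428. Over all 13282 tested genes, 7524 had lower estimates, and 2.89% were lower and 1.83% higher at an unadjusted limma p under 0.05. The macrophage markers summed to 33.5 to 44.8 FPKM in PDN libraries and 43.8 to 58.1 FPKM in control libraries, and the fibroblast and endothelial markers to 371 to 413 FPKM in PDN libraries and 414 to 467 FPKM in control libraries. The summed satellite glia list, at 1856 to 2064 FPKM in PDN libraries and 1859 to 2156 FPKM in control libraries, consists mostly of Apoe, which was at 1404 to 1628 FPKM over the 6 libraries. This pattern was looked for after the Grin2b values were seen, and the part of these cells in the Grin2b result was not tested.

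Grin3a encodes a GluN3 subunit, which binds glycine and lowers the calcium permeability of NMDA receptors. It was at 2.48, 2.95 and 3.27 FPKM in PDN libraries and at 2.27, 2.62 and 2.59 FPKM in control libraries. PDN 2 and PDN 3 lie above every control and PDN 1 lies among them. The difference was 0.16 ± 0.11 (SE), its 95% interval -0.10 to 0.41 and its adjusted p in limma 0.999. The related Grin3b, which is not among the 10, was higher in level than Grin3a, at 5.07 ± 0.700 FPKM in PDN and 4.39 ± 0.834 FPKM in controls (SD, n = 3 each). The 2 GluN3 genes together summed to 8.24, 8.06 and 7.63 FPKM in PDN libraries and to 7.62, 6.60 and 6.42 FPKM in control libraries. Every PDN library lies above every control in this sum, with PDN 3 and control 1 nearly equal, and no test was run on it. For each of the 2 genes alone the groups overlap. Of all tested genes 3.69% had every PDN library higher.

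The remaining GluN2 genes were below the filter. Grin2a was at 0.195, 0.257 and 0.188 FPKM in PDN libraries and at 0.419, 0.586 and 0.331 FPKM in control libraries, so the groups do not overlap. Of the tested genes, 6.24% had every PDN library lower, and the share among genes below the filter was not counted. In the limma fit without the filter the Grin2a difference was -0.25 ± 0.07 (SE), with an unadjusted p of 0.0109 and an adjusted p of 0.929. Grin2d ranged from 0.215 to 0.337 FPKM and Grin2c from 0.0248 to 0.0967 FPKM over the 6 libraries. The 4 GluN2 genes together summed to 1.20, 1.39 and 2.51 FPKM in PDN libraries and to 2.97, 2.29 and 2.60 FPKM in control libraries. The ratio of Grin1 to Grin2b was 35.7, 28.3 and 11.0 in PDN libraries and 10.9, 13.6 and 11.1 in control libraries, with PDN 1 and PDN 2 above the others.

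**Figure D2:**
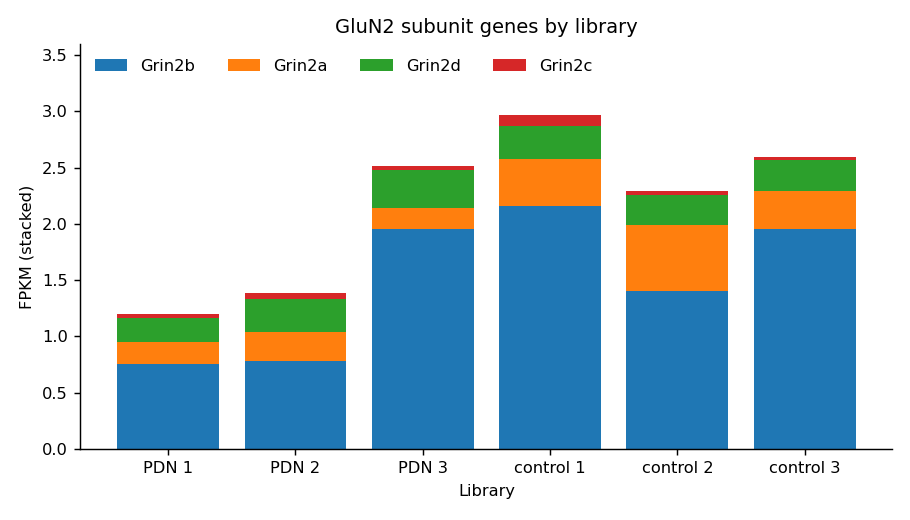
Stacked FPKM of the 4 GluN2 subunit genes in each library, with PDN libraries left of control libraries. PDN 1 and PDN 2 reach 1.20 and 1.39 FPKM in all, the other 4 libraries 2.29 to 2.97 FPKM, and Grin2b makes up most of each bar.

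Across the 10 subunits, 0 passed an adjusted p of 0.05 in limma, and 0 of all 13282 tested genes did (0%). At an unadjusted p under 0.05 there were 0 of the 10 in either direction, where 1.83% of all tested genes were higher in PDN and 2.89% lower. The groups did not overlap in 0 of the 10, against 3.69% of all tested genes with every PDN library higher and 6.24% with every PDN library lower. The 10 had 6 higher and 4 lower estimates with a median of 0.04, and all tested genes had 5758 higher and 7524 lower estimates with a median of -0.02. For the 9 subunits other than Grin2b the 95% intervals together run from -0.52 to 0.41, which is 0.699-fold to 1.33-fold on the FPKM + 1 scale. The interval of Grin2b runs from 0.519-fold to 1.06-fold. Missing the threshold does not show that the levels were alike.

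**Figure D3:**
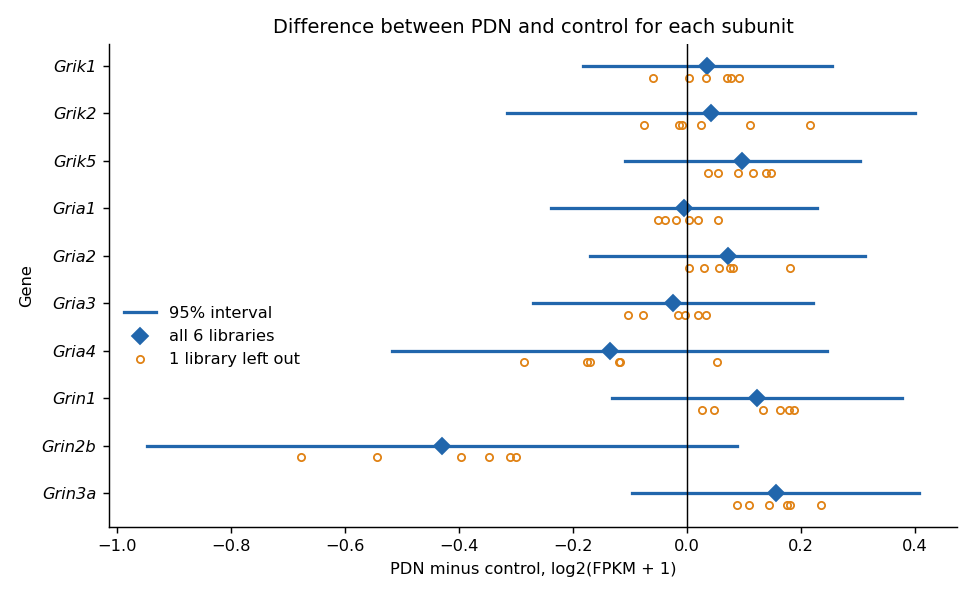
Difference between PDN and control on the log2(FPKM + 1) scale for each subunit, with the estimate from all 6 libraries (diamond), its 95% interval (line) and the 6 estimates with 1 library left out (open circles). Every interval holds 0, and the estimates run from -0.43 for Grin2b to 0.16 for Grin3a.

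FPKM is scaled to length, so levels of different subunits can be ordered, as far as the unnamed transcript lengths behind them hold. The whole-number values, as a fraction of FPKM times genomic span times the library constant, differed between subunits. They were 0.0566 to 0.0803 for Grik2 and 0.185 to 0.192 for Gria4, but 1 for Grik5 and Grin3a. What this means for the order and the shares below was not tested. Over both groups the means ran from 39.5 FPKM for Grik1 through 22.4 for Grin1, 14.0 for Grik2, 10.6 for Gria2, 8.43 for Grik5, 7.16 for Gria4, 3.68 for Gria3, 2.70 for Grin3a and 1.78 for Gria1 to 1.50 for Grin2b. Grik1 exceeded 86.1% of the tested genes in level. Most neighbours in this order keep it in all 6 libraries, and 3 pairs do not. Grik2 was above Gria2 in 5 libraries, Grik5 above Gria4 in 4, and Gria1 above Grin2b in 3. Gria2 was above Grik5 in all 6 libraries, although their ranges overlap across libraries.

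The summed level of each receptor class overlapped between the groups. The AMPA subunits summed to 23.1 ± 2.05 FPKM in PDN and 23.3 ± 1.25 FPKM in controls, the 5 kainate subunits to 74.9 ± 2.69 FPKM in PDN and 71.9 ± 2.36 FPKM in controls, and the 7 NMDA subunits to 33.1 ± 2.71 FPKM in PDN and 30.9 ± 3.01 FPKM in controls (SD, n = 3 each). Gria2 made up 47.2 ± 3.995% of the AMPA sum in PDN and 44.2 ± 4.46% in controls, and Gria4 29.3 ± 5.29% in PDN and 32.1 ± 3.06% in controls. Grik1 took 53.3 ± 0.685% of the kainate sum in PDN and 54.2 ± 4.77% in controls. Grin1 took 70.6 ± 3.05% of the NMDA sum in PDN and 69.3 ± 1.21% in controls, and its value was 2.12 to 2.84 times the sum of the other NMDA subunits in PDN libraries and 2.15 to 2.40 times in control libraries. The share of Grin2b was 2.07%, 2.48% and 6.18% in PDN libraries and 6.35%, 5.02% and 6.38% in control libraries, with the same 2 low libraries as its level. No test was run on these shares.

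**Figure D4:**
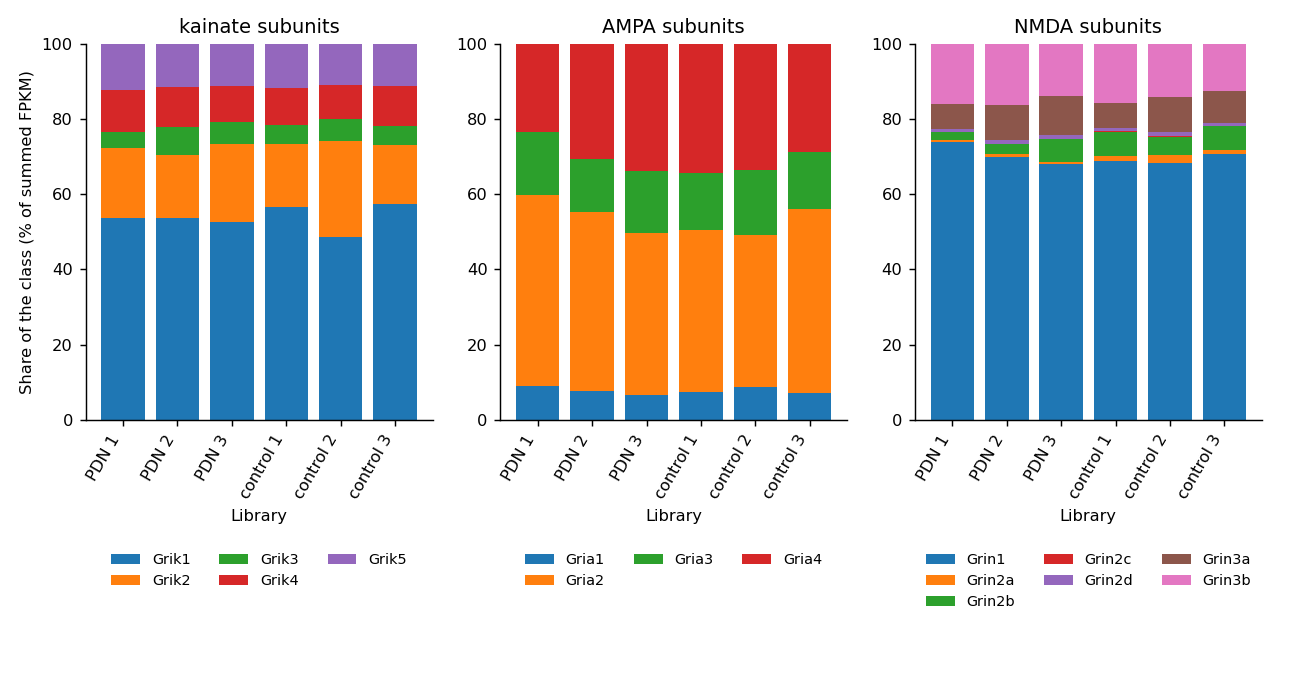
Share of each subunit gene in the summed FPKM of its receptor class, per library, with PDN libraries left of control libraries. Grik1, Gria2 and Grin1 take the largest part of their class in each library, and Gria4 is smallest in PDN 1 (23.5% of the AMPA sum).

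The partners of the receptors were taken from lists chosen with earlier results of these data known, and 0 of their tested genes passed an adjusted p of 0.05 in limma. Of 16 tested genes listed for auxiliary subunits and other partners of AMPA receptors, 4 had higher and 12 lower estimates, with a median of -0.09. The list is wider than auxiliary subunits alone, with Frrs1l, Olfm1, Cpt1c, Porcn, Abhd6 and Sacm1l among its genes. Cnih2, a cornichon protein that slows the closing of AMPA receptors, was at 6.15, 4.61 and 4.92 FPKM in PDN libraries and at 3.79, 3.46 and 1.74 FPKM in control libraries. Every PDN library lies above every control. Its difference was 0.67 ± 0.22 (SE), with an unadjusted p of 0.0158 and an adjusted p of 0.999 in limma. It was the 1 of the 16 at an unadjusted p under 0.05, where 1.83% of all tested genes were higher and 2.89% lower. In Frrs1l, of the same list, every PDN library lies below every control. Of all tested genes 3.69% had every PDN library higher and 6.24% every PDN library lower. Frrs1l, which takes part in AMPA receptor assembly, was at 6.54 ± 0.239 FPKM in PDN and 7.46 ± 0.613 FPKM in controls, and Olfm1, the most abundant of the list, at 86.3 ± 10.3 FPKM in PDN and 80.3 ± 7.80 FPKM in controls (SD, n = 3 each). The 3 tested kainate receptor partners (Neto1, Neto2 and C1ql3) had differences of -0.12 to 0.08.

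Of 24 tested scaffold and trafficking genes, 14 had higher and 10 lower estimates, with a median of 0.06. Nptx2, a secreted pentraxin that clusters AMPA receptors, was at 27.7, 28.2 and 25.4 FPKM in PDN libraries and at 29.7, 31.4 and 35.5 FPKM in control libraries. Every PDN library lies below every control, with a difference of -0.24 ± 0.08 (SE), an unadjusted p of 0.0229 and an adjusted p of 0.999 in limma. It was the 1 of the 24 at an unadjusted p under 0.05, where 1.83% of all tested genes were higher and 2.89% lower. Of the 24, 1 had every PDN library higher and 1 every PDN library lower, against 3.69% and 6.24% of all tested genes. Nsf, an ATPase that binds the GluA2 subunit and the most abundant gene of the list, was at 165 ± 10.4 FPKM in PDN and 149 ± 16.3 FPKM in controls (SD, n = 3 each).

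Of 11 tested kinases and phosphatases, 5 had higher and 6 lower estimates, with a median of -0.03. The protein kinase C gene Prkcb was at 31.7, 30.7 and 29.1 FPKM in PDN libraries and at 39.4, 33.3 and 34.8 FPKM in control libraries, with every PDN library below every control. Its difference was -0.22 ± 0.08 (SE), with an unadjusted p of 0.0252 and an adjusted p of 0.999 in limma. Prkcb was the 1 of the 11 at an unadjusted p under 0.05, where 1.83% of all tested genes were higher and 2.89% lower. It was also the 1 of the 11 with every PDN library lower, against 6.24% of all tested genes. Camk2a was at 20.9 ± 0.537 FPKM in PDN and 18.8 ± 2.54 FPKM in controls, and the calcineurin subunit gene Ppp3ca at 128 ± 2.67 FPKM in PDN and 124 ± 3.95 FPKM in controls (SD, n = 3 each). Adarb1, the enzyme gene known for editing the Gria2 transcript, was at 14.9 ± 0.986 FPKM in PDN and 14.3 ± 1.22 FPKM in controls, a difference of 0.06 ± 0.09 (SE), and Adar differed by 0.005.

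The 6 tested genes of co-agonist supply had 3 higher and 3 lower estimates, with a median of -0.008. Shmt2, which makes glycine in mitochondria, was at 19.1 ± 0.666 FPKM in PDN and 20.7 ± 0.781 FPKM in controls (SD, n = 3 each). Every PDN library lies below every control for Shmt2, with PDN 1 at 19.7 and control 3 at 19.8 FPKM nearly equal. Of all tested genes 6.24% had every PDN library lower. Phgdh, which starts serine synthesis, was at 51.0 ± 4.54 FPKM in PDN and 58.5 ± 10.4 FPKM in controls. The serine transporter gene Slc7a10 was at 2.64 ± 0.553 FPKM in PDN and 2.19 ± 0.0766 FPKM in controls (SD, n = 3 each). Only Grm7 and Grm8 of the 7 metabotropic receptor genes found passed the filter. Grm7 was at 10.4 ± 1.06 FPKM in PDN and 9.34 ± 1.16 FPKM in controls, and Grm8 at 3.54 ± 0.465 FPKM in PDN and 3.52 ± 0.342 FPKM in controls. The ionotropic subunit genes Grik3, Grik4, Grin3b and Grid1, which are not among the 10, had higher estimates, from 0.03 to 0.18, each with an adjusted p of 0.999 in limma. Grid1, whose delta subunit binds no glutamate, was at 3.24 ± 0.446 FPKM in PDN and 3.15 ± 0.331 FPKM in controls (SD, n = 3 each).

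**Figure D5:**
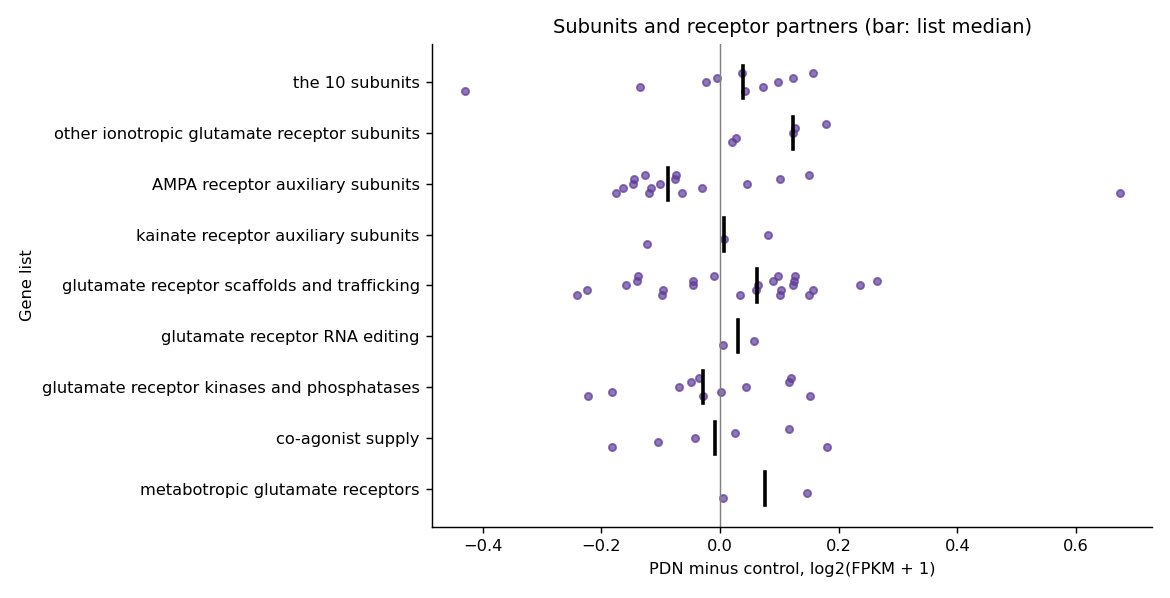
Difference between PDN and control on the log2(FPKM + 1) scale for each tested gene of the 10 subunits and of the lists of receptor partners, with a bar at each list median. The medians run from -0.09 for the list labelled AMPA receptor auxiliary subunits, which also holds other partners, to 0.12 for the other ionotropic subunits. Cnih2 lies farthest from 0 at 0.67.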

How the data were processed

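RNA was extracted with Trizol, and strand-specific libraries were made from 1 µg of total RNA, per the labels' protocols. The authors deposited FPKM per gene; the sources used here name no aligner, quantifier, annotation or build. The other deposited table holds whole numbers, treated as a score and not as counts. Among its values above 1000, 54.7% to 55.1% equalled FPKM times genomic span times 1 constant per library within a relative tolerance of 0.001. That constant, taken as the library size, gave the implied depths, which were not checked against another source. Fragments per gene could not be recovered, so no interval for counting error was computed.

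The 13282 genes that reached an FPKM of 1 in 3 or more libraries were tested by limma (version 3.58.1, R 4.3.3) on log2(FPKM + 1), using the intensity trend option and a model of group alone. Benjamini-Hochberg adjustment ran over all tested genes, with a threshold of 0.05, and the fit was tested on simulated data. Differences are PDN minus control. P-values measure the spread between these libraries, taken as animals. Named are the 10 subunits, the other ionotropic subunits and, per partner list, the 2 genes with the smallest p and the most abundant one; some of these are not reported here. Members and lists were chosen with earlier results of these data known. The alternatives were the pseudocount, filter, scaling, table, robust empirical Bayes, replicate block, centring on neuron markers and left-out libraries.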

Additional observations from a re-analysis of the deposited data

How the results depend on the processing

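Over 16 alternative fits (15 for Grin2b, which the stricter filter removes), 0 of the 10 subunits passed the threshold in any, and the smallest adjusted p in limma was 0.473. That value is for Grin2b without control 2 and PDN 3, where a repeated filter would have removed the gene. Gria2, Grik5, Grin1, Grin2b and Grin3a kept the direction of their estimate in each fit. The sign of Gria1 turned to 0.00999 with median-of-ratios and 0.0105 with upper-quartile scaling, and to 0.0793 without control 2 and PDN 3. The median of all tested genes was 0.004 and 0.005 under these scalings, against -0.02 in the fit as reported. Gria3 turned to 0.0251 in the table of whole numbers, and Grik1 to -0.0252 without control 2 and PDN 3. With 1 library left out, the estimates ran from -0.0507 to 0.0540 for Gria1, -0.104 to 0.0334 for Gria3, -0.285 to 0.0532 for Gria4, -0.0598 to 0.0917 for Grik1, -0.0743 to 0.216 for Grik2, 0.00407 to 0.181 for Gria2, 0.0375 to 0.147 for Grik5, 0.0272 to 0.189 for Grin1, -0.677 to -0.300 for Grin2b and 0.0878 to 0.236 for Grin3a, with the cause not tested.

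The count of genes past the threshold over the whole table was 0 in the fit as reported. It was 1 without the filter and 1 with robust empirical Bayes (AABR07012079.1 in both), 3 in the table of whole numbers (Myom3, Sapcd1 and Vps33a), 9 without control 2 and PDN 3, and 0 to 6 over the fits with 1 library left out. These genes were named after their values were seen. With the replicate block the count was 0, and the members' adjusted p-values lay between 0.772 and 0.995. Same-numbered libraries deviated from their group means with correlations of 0.171, -0.12 and -0.0865, so the numbers were not taken to pair the animals, and the highest correlation, 0.269, was between PDN 3 and control 2. Among list medians, that of the other ionotropic subunits was 0.02 without the filter, that of the 2 editing genes ran from -0.03 to 0.07 with 1 library left out, and that of neuron markers was 0.08 without control 1. The muscle marker median, -0.03 as reported, was 0.61 with a pseudocount of 0.1, 0.80 in the table of whole numbers, 0.72 without control 2 and PDN 3, and -0.85 to 1.65 with 1 library left out. The stricter filter left 1 gene of the muscle list, Acta1, at 0.48. The spinal cord list, which rests on 1 tested gene at 0.38, had a median of -0.008 without the filter. For Grin2b, a pseudocount of 0.1 gave -0.73 and the table of whole numbers gave -0.78.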
